A study of Mus musculus with 18 samples.

Results

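The Pax and myogenic regulatory factors are the 6 transcription factor genes Pax3, Pax7, Myf5, Myod1, Myog and Myf6. Each was read from the probe set whose annotated symbol is that gene, and all 6 had 1 probe set among the 22180 genes that the arrays name. All 6 were among the 16011 genes bright enough to be tested. They were followed across 5 sorted cell populations on 18 mouse arrays, in the order in which the genes act from muscle stem cell to differentiating myoblast.

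The tumors came from aP2-Cre/+;tdTomato/+/;SmoM2/+ mice of the strain BJ;SJL;B6.129 and gave Tom+/Pecam1+, Tom+/Pecam1- and Tom-/Pecam1- cells (n = 4 arrays each). Tumor repeats 1 to 3 were taken at postnatal day 48 and repeat 4 at day 38. Normal sternocleidomastoid muscle, a neck muscle, came from aP2-Cre/+;tdTomato/+ mice (aP2-Cre/+;tdTomato for Tom+ repeat 1) of the strain B6;SJL at day 21 and gave Tom+ and Tom- cells (n = 3 arrays each). No tissue sample was free of Cre or of the reporter. Cre is driven in all groups by the promoter of Fabp4 (aP2), a gene of fat cells and capillary endothelium, so the red tdTomato signal (Tom+) marks cells with past or present Cre activity. SmoM2 is an active form of Smoothened, the transducer of hedgehog signals. Pecam1 is a surface protein that joins endothelial cells and is also found on some leukocytes. The labels call the arrays biological repeats but give no animal for any of them, so the p-values measure the spread between these arrays, which may be technical.

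Skeletal muscle is made by cells that first express the paired-box factors Pax3 and Pax7, then the basic helix-loop-helix factors Myf5 and Myod1, and then Myog. Myf6 acts in differentiating myocytes and in fibres, and in the embryo also early. In postnatal muscle Pax7 marks the satellite cells, the resident stem cells. The helix-loop-helix members pair with E proteins and bind the E-box, the motif CANNTG. Myod1 and Myog are diagnostic markers of rhabdomyosarcoma, a tumor with muscle features.

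Promoter windows from RefSeq (GRCm38.p6) covered 3 of the 6 genes, Pax7, Myf5 and Myog, from 250 bases before to 50 bases after a transcript start. They are shown because E-boxes are the sites that the family binds. The source held no window for Pax3, Myod1 and Myf6, so these are named without a sequence. The Pax7 window is chr4:139832919-139833218 on the minus strand, the Myf5 window chr10:107486085-107486384 on the minus strand, and the Myog window chr1:134289754-134290053 on the plus strand. Capitals mark an E-box, CANNTG, searched on both strands, of which CAGCTG is 1 form.
Pax7: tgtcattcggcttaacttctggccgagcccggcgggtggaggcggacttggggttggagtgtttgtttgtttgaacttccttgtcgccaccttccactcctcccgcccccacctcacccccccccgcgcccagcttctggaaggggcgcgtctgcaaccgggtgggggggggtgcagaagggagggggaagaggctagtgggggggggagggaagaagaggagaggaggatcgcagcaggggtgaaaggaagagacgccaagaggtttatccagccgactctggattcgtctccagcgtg
Myf5: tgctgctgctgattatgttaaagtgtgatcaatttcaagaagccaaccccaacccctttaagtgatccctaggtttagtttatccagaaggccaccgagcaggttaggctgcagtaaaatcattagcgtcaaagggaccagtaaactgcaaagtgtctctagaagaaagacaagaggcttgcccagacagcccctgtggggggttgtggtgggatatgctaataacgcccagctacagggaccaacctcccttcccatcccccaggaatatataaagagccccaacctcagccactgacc
Myog: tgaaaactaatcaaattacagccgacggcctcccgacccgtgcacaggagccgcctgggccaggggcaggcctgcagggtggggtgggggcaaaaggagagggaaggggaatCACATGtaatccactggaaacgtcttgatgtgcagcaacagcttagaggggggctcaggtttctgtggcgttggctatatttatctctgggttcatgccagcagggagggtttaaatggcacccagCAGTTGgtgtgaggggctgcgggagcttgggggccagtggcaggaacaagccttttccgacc
The Myog window held 2 E-boxes, CACATG starting 138 bases before the start and CAGTTG starting 12 bases before it. An E-box stood in 72.3% of all 32851 windows of 300 bases and the form CAGCTG in 16.3%. The Pax7 and Myf5 windows held 0 E-boxes. Myf5 and Myf6 lie on the same chromosome, and 0 genes of the RefSeq annotation start between them.

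Values below are the deposited log2 intensities, on which a difference of 1 is a doubling. Levels of different genes come from different probes and are not set against each other. Comparisons within tumors and within muscle used these values. Between tumor and muscle each array was first centred on its own median, because array medians were 5.41 to 5.438 in tumor and 5.041 to 5.105 in muscle. Adjusted p-values come from limma's moderated test over all 16011 genes with Benjamini-Hochberg adjustment, and a call is an adjusted p under 0.05. Shares of all genes given beside member counts are shares of genes called. A share of all genes whose groups do not overlap is not given, so counts of members without overlap have no background to be judged against. In the tumor arrays the deposited values of the 3 populations have the same mean for every repeat number, to within 7.67e-05, while the median range of such means in muscle was 0.248. Differences between tumor repeats in this mean are thus absent from the deposited values, a high value in 1 population of a repeat lowers the others of that repeat, and p-values within tumors tend to be too small. The fit pools 1 spread over all 5 groups, so p-values within muscle and between tumor and muscle can be too small as well. Salivary gland genes stood apart in muscle repeats 1 and 2. The summed intensity of 13 such genes was 11.6 and 11.3 (log2) in Tom+ and 14.0 and 11.3 in Tom- cells of these repeats, against 8.37 in Tom+ and 8.46 in Tom- cells of repeat 3 and 8.08 to 8.37 in all tumor arrays. Muscle results are therefore also given without repeats 1 and 2, which leaves 1 array per muscle population. The p-values of that setting rest on the spread of the tumor arrays alone.

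Defining markers fitted the labelled gates in part. The summed level of 10 blood endothelial genes was 14.0 to 14.8 in tumor Tom+/Pecam1+ cells and 14.1 to 14.2 in muscle Tom+ cells, against 9.68 to 10.1 in tumor Tom+/Pecam1-, 9.28 to 10.2 in tumor Tom-/Pecam1- and 10.7 to 11.0 in muscle Tom- cells. The sum of 10 pan-leukocyte genes reached 12.7 to 13.5 in tumor Tom-/Pecam1- cells, against 11.1 to 11.4 in tumor Tom+/Pecam1- and 10.6 to 10.7 in muscle Tom- cells. That of 9 fibroblast genes was 13.7 to 14.4 in tumor Tom+/Pecam1-, 14.2 to 14.4 in tumor Tom-/Pecam1- and 14.0 to 14.1 in muscle Tom- cells. Leukocyte sums were lower in tumor Tom+/Pecam1+ (9.65 to 10.6) and muscle Tom+ cells (9.33 to 9.77) than in tumor Tom-/Pecam1- cells. So were their fibroblast sums (10.1 to 10.8 and 8.83 to 9.70). Tumor Tom-/Pecam1- cells, high in both leukocyte and fibroblast genes, were thus a mixture. Tumor Tom+/Pecam1- and muscle Tom- cells had fibroblast sums close to theirs (13.7 to 14.4 and 14.0 to 14.1). Their sums of 9 muscle fibre genes were 12.1 to 12.6 and 10.3 to 13.3. These 2 populations are thus not shown to be purer, and whether any of the other populations was a mixture was not tested. The low leukocyte and fibroblast sums of tumor Tom+/Pecam1+ and muscle Tom+ cells may be background. In bulk RNA fewer cells of a type cannot be told apart from less RNA of a gene per cell.

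The stem cell factor Pax7 was high in tumor Tom+/Pecam1- cells and muscle Tom- cells and low in both endothelial-marked populations. It had log2 intensities of 6.08, 5.73, 5.44 and 6.65 in tumor Tom+/Pecam1+ cells, 9.12, 8.98, 8.73 and 9.23 in tumor Tom+/Pecam1- cells, and 7.15, 7.64, 8.17 and 6.46 in tumor Tom-/Pecam1- cells. In muscle it read 5.99, 4.85 and 5.38 in Tom+ cells against 8.56, 8.65 and 7.81 in Tom- cells. The 4 tumor Tom+/Pecam1- arrays were all above the 4 tumor Tom-/Pecam1- arrays, and the 3 muscle Tom+ arrays all below the 3 muscle Tom- arrays. On centred values the group means ran in the order tumor Tom+/Pecam1- (3.60), muscle Tom- (3.25), tumor Tom-/Pecam1- (1.94), tumor Tom+/Pecam1+ (0.55) and muscle Tom+ (0.33), and every neighbouring pair in this order overlapped except muscle Tom- and tumor Tom-/Pecam1- cells, whose ranges nearly met.

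Pax3, which in the embryo marks the migrating muscle progenitors, varied little between the populations. Its log2 intensities were 4.48, 4.73, 4.65 and 4.60 in tumor Tom+/Pecam1+, 4.82, 4.81, 4.82 and 4.51 in tumor Tom+/Pecam1-, and 4.94, 4.70, 4.77 and 5.13 in tumor Tom-/Pecam1- cells. Muscle gave 4.76, 4.48 and 4.56 in Tom+ and 4.61, 4.83 and 4.43 in Tom- cells. It lay below the array median in all 18 arrays, and groups next to each other in rank overlapped. Centred means ran from -0.81 in tumor Tom+/Pecam1+ to -0.46 in muscle Tom- cells, and the tumor Tom+/Pecam1+ arrays (-0.93 to -0.70) lay wholly below those of muscle Tom+ (-0.60 to -0.34) and muscle Tom- cells (-0.62 to -0.28). At this brightness a probe set may carry little signal of its gene, so these values put no limit on Pax3 in a minority of cells.

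Myf5, which commits progenitors to muscle, followed Pax7. Its intensities were 5.92, 5.69, 5.67 and 6.55 in tumor Tom+/Pecam1+, 9.41, 8.98, 8.69 and 9.66 in tumor Tom+/Pecam1-, and 7.32, 7.98, 8.29 and 6.44 in tumor Tom-/Pecam1- cells. Muscle Tom+ cells read 5.38, 5.01 and 5.49, against 8.78, 8.81 and 9.10 in muscle Tom- cells. The centred means of muscle Tom- (3.82) and tumor Tom+/Pecam1- cells (3.77) overlapped, and both groups lay wholly above the tumor Tom-/Pecam1- cells (2.09).

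Myod1, the other commitment factor, read 5.08, 5.36, 5.07 and 6.21 in tumor Tom+/Pecam1+, 8.23, 7.87, 8.03 and 7.74 in tumor Tom+/Pecam1-, and 6.83, 6.91, 7.03 and 6.19 in tumor Tom-/Pecam1- cells. Its muscle values were 4.95, 5.30 and 4.97 in Tom+ and 7.22, 7.76 and 7.62 in Tom- cells. Centred means were 2.55 in tumor Tom+/Pecam1- and 2.45 in muscle Tom- cells, which overlapped each other and lay clear above tumor Tom-/Pecam1- cells (1.32). Both endothelial-marked populations had means of 0.00. The lowest tumor Tom-/Pecam1- array (0.779) and the highest tumor Tom+/Pecam1+ array (0.772) all but met on centred values, and on deposited values these groups overlapped (6.19 against 6.21).

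Myog, which drives myoblasts to leave the cell cycle and differentiate, had its highest mean in muscle Tom- cells. Its intensities were 5.93, 6.07, 6.01 and 6.97 in tumor Tom+/Pecam1+, 9.45, 9.04, 8.78 and 9.10 in tumor Tom+/Pecam1-, and 7.53, 7.81, 8.12 and 6.84 in tumor Tom-/Pecam1- cells. Muscle Tom+ cells had 5.42, 6.07 and 5.73 and muscle Tom- cells 9.07, 10.22 and 9.93. Centred means were 4.66 in muscle Tom-, 3.68 in tumor Tom+/Pecam1-, 2.16 in tumor Tom-/Pecam1-, 0.82 in tumor Tom+/Pecam1+ and 0.67 in muscle Tom+ cells, with overlap between all neighbours except tumor Tom+/Pecam1- and tumor Tom-/Pecam1- cells.

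Myf6, the late factor, had another order. It read 4.88, 4.64, 4.61 and 4.59 in tumor Tom+/Pecam1+, 6.74, 6.45, 6.71 and 6.95 in tumor Tom+/Pecam1-, and 4.94, 5.47, 5.24 and 5.02 in tumor Tom-/Pecam1- cells. Muscle cells gave 4.30, 4.06 and 3.90 where Tom+ and 4.77, 4.45 and 4.50 where Tom-. Only tumor Tom+/Pecam1- cells, at a centred mean of 1.30, lay above the array median on all arrays and clear of every other population, whose means were -0.25 in tumor Tom-/Pecam1-, -0.51 in muscle Tom-, -0.75 in tumor Tom+/Pecam1+ and -0.99 in muscle Tom+ cells.

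**Figure D1:**
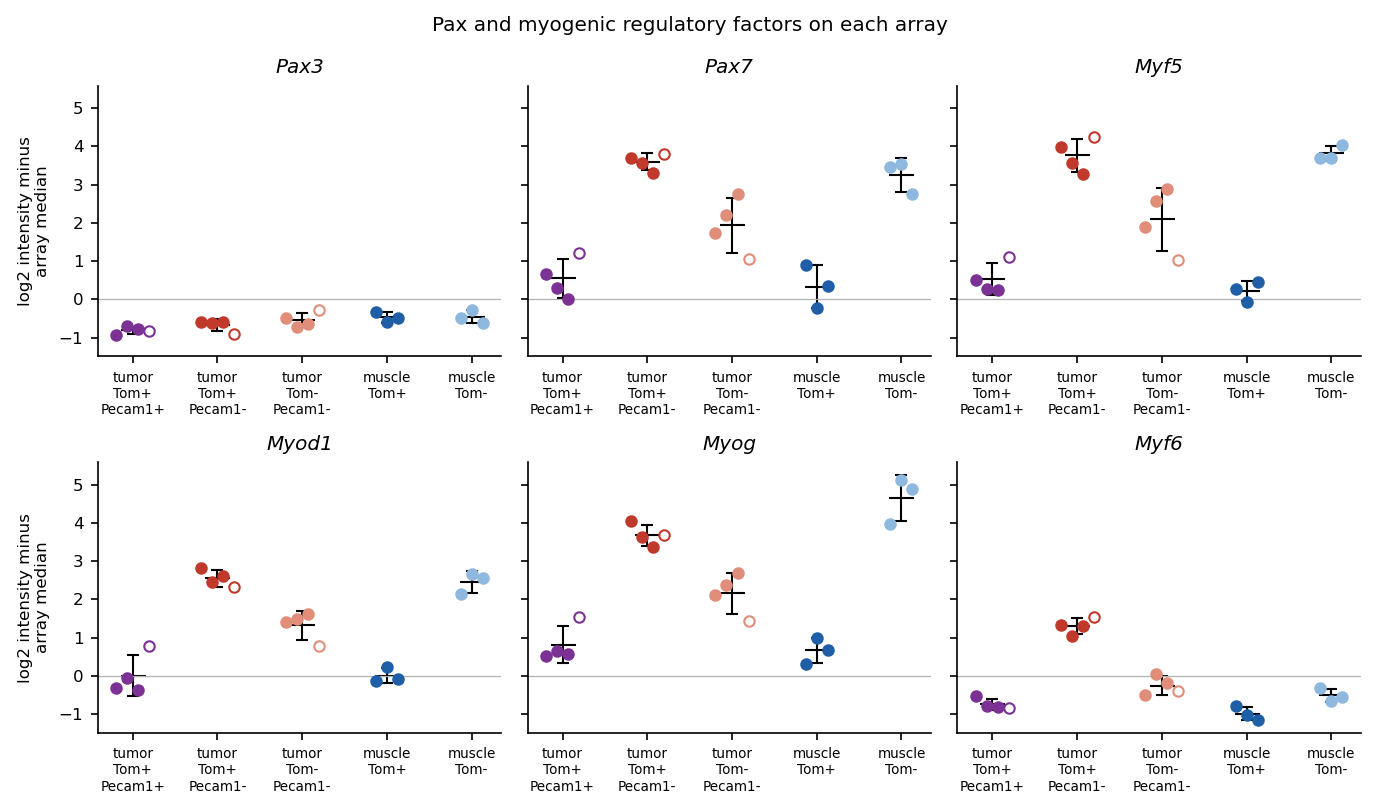
Log2 intensity minus the array's median (vertical axis) of each of the 6 genes in the 5 sorted populations (horizontal axis). Each point is 1 array, open where it is tumor repeat 4 (postnatal day 38), and bars give the mean and SD. Pax7, Myf5, Myod1 and Myog are high in tumor Tom+/Pecam1- and muscle Tom- cells, Myf6 is above the median in all arrays of tumor Tom+/Pecam1- cells, and Pax3 is below it everywhere.

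Within tumors, the Tom+/Pecam1- cells had more RNA of 5 of the 6 genes than the Tom-/Pecam1- cells. This comparison sets cells with the mark of Cre activity against cells without it, both from mice that carry Cre. Pax7 was 3.16-fold higher (9.02 ± 0.21 in Tom+/Pecam1- and 7.35 ± 0.73 in Tom-/Pecam1- cells, SD, n = 4 each; adjusted p = 0.00144, limma). Myf5 was 3.19-fold higher (adjusted p = 0.000967), Myod1 2.34-fold (adjusted p = 0.000857), Myog 2.86-fold (adjusted p = 0.0011) and Myf6 2.92-fold (adjusted p = 9.92e-07). Pax3 did not pass (log2 difference -0.15, 95% interval -0.39 to 0.09, adjusted p = 0.392). In this comparison 25.4% of all genes tested were called and 13.4% were called higher. The 5 called genes were also the 5 whose arrays did not overlap. The 10 leukocyte genes were all called lower in the Tom+/Pecam1- cells (median -2.01), 5 of 7 tenocyte genes were lower, and 5 of 9 muscle fibre genes were higher. The part of these cell types in the result was not tested.

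The size of this difference varied between repeats. For Pax7 it was 1.96, 1.34, 0.56 and 2.78 (log2) in repeats 1 to 4, and for Myf5 2.08, 1.00, 0.40 and 3.22. Myod1 varied less, at 1.40, 0.96, 1.00 and 1.54, as did Myf6 at 1.81, 0.98, 1.48 and 1.93. Myog gave 1.92, 1.23, 0.66 and 2.26. Each of these 5 genes was higher in 4 of 4 repeats, smallest in repeat 3 for Pax7, Myf5 and Myog, and largest in repeat 4, taken at day 38. Without repeat 4 all 5 remained called, with Pax7 at 1.29 (adjusted p = 0.00556) and Myf5 at 1.16 (adjusted p = 0.00146). In repeat 4 the Tom-/Pecam1- cells also had the lowest leukocyte sum of their group (12.7) and the highest endothelial sum (10.2). Through the equal means per repeat number, these levels also depend on the other populations of repeat 4. Age, repeat and these levels cannot be told apart with 1 repeat at day 38.

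**Figure D2:**
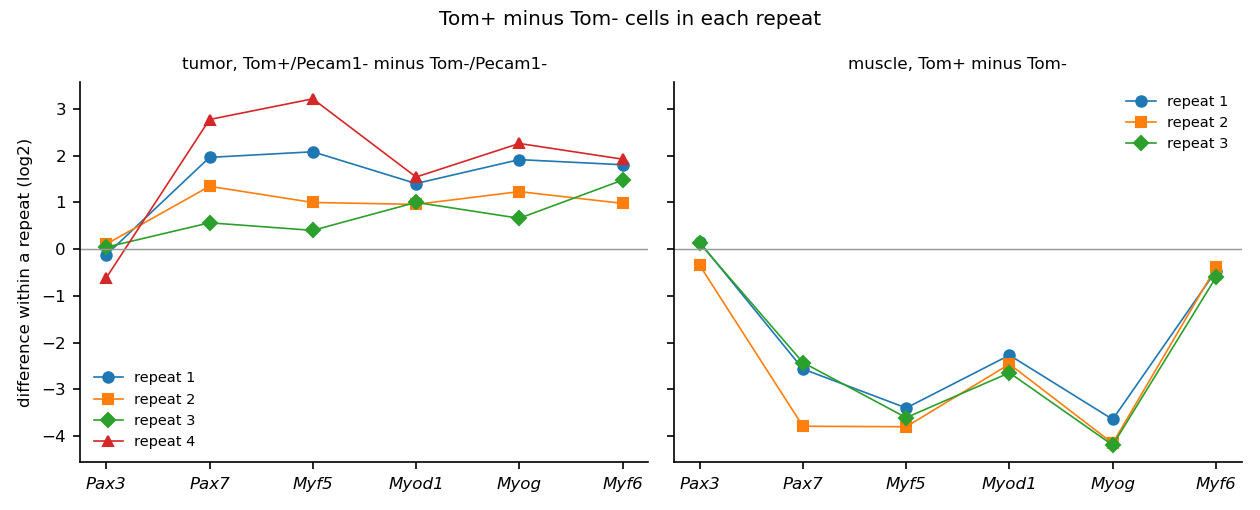
Difference in log2 intensity within each repeat number (vertical axis) for the 6 genes (horizontal axis), as Tom+/Pecam1- minus Tom-/Pecam1- cells in tumors (left) and Tom+ minus Tom- cells in muscle (right). Each line joins the 6 values of 1 repeat. Pax7, Myf5, Myod1, Myog and Myf6 lie above 0 in all 4 tumor repeats and below 0 in all 3 muscle repeats.

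The Tom+/Pecam1+ tumor cells had less RNA of 5 members than either other tumor population. Against the Tom+/Pecam1- cells, Pax7 was 8.22-fold lower (5.98 ± 0.52 in Tom+/Pecam1+ and 9.02 ± 0.21 in Tom+/Pecam1- cells; adjusted p = 7.37e-07, limma) and Myf5 9.35-fold lower (adjusted p = 1.95e-07). Myod1 was 5.79-fold lower (adjusted p = 6.71e-08), Myog 7.19-fold (adjusted p = 3.34e-07) and Myf6 4.09-fold (adjusted p = 1.13e-09). So 5 of 6 members were called lower, where 44.6% of all genes were called and 23.6% were called lower. In all 5 the groups also did not overlap, a count without a background here. All 10 endothelial genes were higher (median 4.72) and all 9 fibroblast genes lower (median -3.58), so the cell makeup moved with the result, and its part was not tested. Pax3 did not pass (log2 difference -0.12, adjusted p = 0.41).

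Against the Tom-/Pecam1- cells the same 5 genes were called lower in Tom+/Pecam1+ cells, but only Myf6 without overlap. Of all genes 41.7% were called and 21.2% were called lower. Pax7 differed by -1.38 (adjusted p = 0.00279), Myf5 by -1.55 (adjusted p = 0.000715), Myod1 by -1.31 (adjusted p = 0.000163), Myog by -1.33 (adjusted p = 0.00132) and Myf6 by -0.49 (adjusted p = 0.00711). Repeats 1 to 3 gave Pax7 differences of -1.07, -1.90 and -2.73, but repeat 4 gave 0.19, and likewise Myf5 0.12, Myod1 0.02 and Myog 0.13 in repeat 4. In that repeat the Tom+/Pecam1+ cells had the lowest endothelial (14.0) and highest leukocyte sums (10.6) of their group, and the part of other cells in the result was not tested. Because the 3 tumor populations have equal means for every repeat number, these sums also depend on the other populations of repeat 4. Without repeat 4 the differences were -1.90 for Pax7 (adjusted p = 0.000105) and -2.11 for Myf5 (adjusted p = 1.65e-06).

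In muscle the Tom+ cells, which were not split by Pecam1, had less RNA of 5 members than the Tom- cells. This was opposite in direction to tumor Tom+/Pecam1- against Tom-/Pecam1- cells, but the same as in tumor Tom+/Pecam1+ against Tom-/Pecam1- cells (Pax7 by -1.38). Both muscle Tom+ and tumor Tom+/Pecam1+ cells were high in endothelial genes. Pax7 was 7.62-fold lower in Tom+ than in Tom- cells (5.41 ± 0.57 in Tom+ and 8.34 ± 0.46 in Tom- cells, SD, n = 3 each; adjusted p = 7.61e-06, limma), and Myf5 was 12.2-fold lower (adjusted p = 3.75e-07). The drop was 16.0-fold for Myog (adjusted p = 3.98e-08) and 5.51-fold for Myod1 (adjusted p = 7.32e-07). Myf6 was 1.40-fold lower (4.08 ± 0.20 in Tom+ and 4.57 ± 0.17 in Tom- cells; adjusted p = 0.0178), a call that was lost without Tom- repeat 1 (adjusted p = 0.0858), without Tom+ repeat 3 (adjusted p = 0.0853) and with a random replicate block (adjusted p = 0.056). The random block used 1 correlation for all arrays, -0.49, while muscle samples of the same repeat number correlated at 0.271 to 0.31. That setting therefore does not describe muscle. Pax3 did not pass (log2 difference -0.03, adjusted p = 0.905). So 5 of 6 members were called lower, where 39.7% of all genes were called, 20.5% lower and 19.1% higher. These 5 genes were lower in 3 of 3 repeats, and their groups did not overlap, which has no background here. All 10 endothelial genes were higher (median 3.45) and all 9 fibroblast genes lower (median -4.76) in Tom+ cells, and their part in the result was not tested. Without repeats 1 and 2, Pax7 stood at -2.43 (adjusted p = 0.0178), Myf5 at -3.61 (adjusted p = 0.00299), Myod1 at -2.65 (adjusted p = 0.00197) and Myog at -4.20 (adjusted p = 0.000185), while Myf6 no longer passed (-0.61, adjusted p = 0.131).

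The mark effect itself was compared between tissues, as Tom+/Pecam1- minus Tom-/Pecam1- cells in tumors less Tom+ minus Tom- cells in muscle. The 2 gates are not alike, since the muscle Tom+ cells were not split by Pecam1 and carried endothelial genes at the level of the tumor Tom+/Pecam1+ cells. The difference of differences was 4.59 for Pax7 (1.66 in tumors, -2.93 in muscle; adjusted p = 1.49e-06), 5.28 for Myf5 (adjusted p = 1.77e-07), 3.69 for Myod1 (adjusted p = 2.5e-07), 5.52 for Myog (adjusted p = 4.1e-08) and 2.04 for Myf6 (adjusted p = 4.9e-07). So 5 of 6 members were called higher, where 39.5% of all genes were called and 20.9% were called higher. The 10 endothelial genes were all called lower and the 9 fibroblast and 9 muscle fibre genes all higher in this difference. Pax3 gave -0.12 (adjusted p = 0.622). Without muscle repeats 1 and 2 the difference was 4.09 for Pax7 (adjusted p = 0.00146), 5.28 for Myf5 (adjusted p = 0.000477), 3.88 for Myod1 (adjusted p = 0.000311), 5.71 for Myog (adjusted p = 4.46e-05) and 2.15 for Myf6 (adjusted p = 0.000235).

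The tumor Tom+/Pecam1- cells were next set against muscle Tom- cells, the normal population with high Pax7. Tumor and muscle samples also differ in age (day 48 or 38 against day 21), strain and genotype, and these cannot be told apart. Pax7 itself did not differ detectably (centred means 3.60 ± 0.22 in tumor and 3.25 ± 0.44 in muscle cells, difference 0.35, 95% interval -0.40 to 1.09, adjusted p = 0.445). Nor did Myf5 (-0.05, -0.77 to 0.68, adjusted p = 0.923), Myod1 (0.10, -0.42 to 0.62, adjusted p = 0.768) or Pax3 (-0.22, adjusted p = 0.142) pass the test. Each interval allows a change in either direction, of up to about 1 log2 unit for Pax7. With muscle repeats 1 and 2 left out the differences were 0.85 for Pax7 (adjusted p = 0.237), -0.28 for Myf5 (adjusted p = 0.743) and -0.01 for Myod1 (adjusted p = 0.982). Myf6 was 3.50-fold higher in the tumor cells (1.30 ± 0.20 in tumor and -0.51 ± 0.17 in muscle cells; adjusted p = 3.78e-08), without overlap, and 1.85 higher on the log2 scale without muscle repeats 1 and 2 (adjusted p = 6.78e-05).

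Myog was 1.97-fold lower in tumor Tom+/Pecam1- than in muscle Tom- cells (3.68 ± 0.28 in tumor and 4.66 ± 0.60 in muscle cells; adjusted p = 0.0169), with overlapping arrays. This call was lost without Tom- repeat 2 (-0.75, adjusted p = 0.0937), without Tom- repeat 3 (-0.87, adjusted p = 0.0668), without muscle repeats 1 and 2 (-1.20, adjusted p = 0.056) and on uncentred values (-0.65, adjusted p = 0.0856). Among muscle Tom- cells the summed level of 9 fibre genes was 13.3, 10.3 and 12.5 in repeats 1 to 3, while Myog read 9.07, 10.22 and 9.93. In this comparison 47.1% of all genes were called, 24.1% higher and 23% lower, so 1 call in each direction among 6 genes is not above the background.

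Tumor Tom-/Pecam1- cells, by contrast, had less of 4 members than muscle Tom- cells. Myog was 5.66-fold lower (2.16 ± 0.54 in tumor and 4.66 ± 0.60 in muscle cells; adjusted p = 7.14e-06), Myf5 3.31-fold (adjusted p = 0.000562), Pax7 2.49-fold (adjusted p = 0.00564) and Myod1 2.19-fold (adjusted p = 0.00114). So 4 of 6 members were called lower, where 48.7% of all genes were called, 24.9% lower and 23.8% higher. The groups did not overlap in any of these 4, a count without a background here. Without muscle repeats 1 and 2 Pax7 no longer passed (-0.82, adjusted p = 0.246), while Myf5 (-1.96, adjusted p = 0.0202), Myod1 (-1.24, adjusted p = 0.0283) and Myog (-2.72, adjusted p = 0.000747) did. The 10 leukocyte genes were all called higher in the tumor cells (median 1.99), and their part in the lower values was not tested. Myf6 gave 0.26 (adjusted p = 0.149), but 0.59 with a call on uncentred values (adjusted p = 0.00208), and Pax3 -0.08 (adjusted p = 0.62).

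Between the endothelial-marked populations, tumor Tom+/Pecam1+ and muscle Tom+ cells, 5 of the 6 genes did not pass: Pax7 differed by 0.22, Myf5 by 0.31, Myod1 by 0.00, Myog by 0.15 and Myf6 by 0.24 on centred values. Pax3 was called lower (-0.34, adjusted p = 0.0376), where 34.2% of all genes were called, 18.5% lower and 15.7% higher, but the sign turned on uncentred values (0.02, adjusted p = 0.926) and the call was lost when any 1 of 5 arrays was left out and with only the groups compared. Myf6 became a call on uncentred values (0.60, adjusted p = 0.00256).

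**Figure D3:**
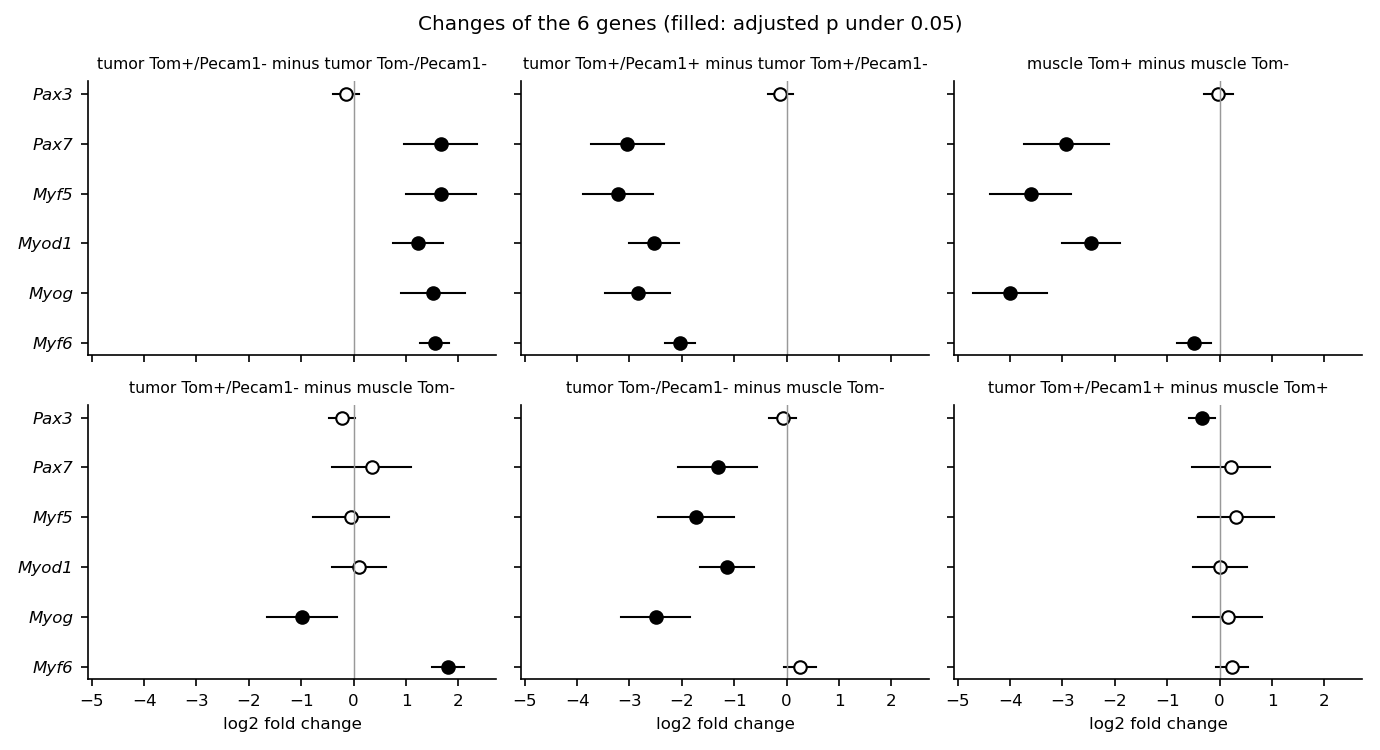
Log2 fold change (horizontal axis) of the 6 genes (vertical axis) in 6 comparisons, each named above its panel. Points are limma estimates with 95% intervals, filled where the adjusted p is under 0.05. Pax3 stays between -0.34 and -0.03 in the panels, Myf6 alone is far above 0 in tumor Tom+/Pecam1- minus muscle Tom- cells, and Myog alone is called below 0 there.

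To ask whether the other factors changed by the same amount as Pax7, the log2 value of Pax7 was subtracted within each array from that of each other member, and groups were compared by a two-sided exact permutation test in 20 tests. In tumor Tom+/Pecam1- against Tom-/Pecam1- cells the change of Myf5 differed from that of Pax7 by 0.01 (exact p = 0.971), of Myog by -0.14 (exact p = 0.343), of Myf6 by -0.11 (exact p = 0.714) and of Myod1 by -0.44 (exact p = 0.2). Pax3 was not called in these comparisons, so its tests restate the change of Pax7 and are not read. Against Tom+/Pecam1- cells, the change of Myf6 in Tom+/Pecam1+ cells differed from that of Pax7 by 1.01 (exact p = 0.0571). The smallest p that 4 against 4 arrays allow is 0.0286, so an adjusted call over 20 tests would need 12 tests at that value. That 0 of 20 passed after Benjamini-Hochberg adjustment (smallest adjusted p = 0.25, with 2 unadjusted p under 0.05, both of Pax3) is therefore no sign that the members changed alike. In muscle the change of Myf6, below the array median in both populations, differed from that of Pax7 by 2.44 (exact p = 0.1), of Myog by -1.07 (exact p = 0.2), of Myf5 by -0.68 (exact p = 0.1) and of Myod1 by 0.47 (exact p = 0.5), where 3 against 3 arrays cannot go below 0.1.

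As a description over the 18 arrays, on centred values, Pax7 correlated with Myf5 at r = 0.976, with Myod1 at 0.952 and with Myog at 0.916. Myf6 correlated with Pax7 at 0.758 and with Myog at 0.55, and Pax3 with the other members at -0.226 to 0.165. These points share the 5 populations, so the values mainly describe population means. Within the 3 tumor populations (12 arrays, deviations from the group means) Pax7 and Myf5 still correlated at 0.95, Pax7 and Myog at 0.895, and Myod1 and Myf6 at 0.000762. Pax3 correlated there with Pax7 at -0.694, with Myf5 at -0.784 and with Myf6 at -0.785. But Pax3 lay below the array median on every array, with SDs of only 0.10 to 0.19 in the tumor groups. Its highest Tom-/Pecam1- array (5.13) and its lowest Tom+/Pecam1- array (4.51) were both repeat 4, and values without that repeat are not given. These deviations come from values whose mean per repeat is equal.

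The genes most like each member over the 18 arrays, of 14261 searched, were named by the highest Pearson correlation. For Pax7 they were Prox1 (0.98), Drp2 (0.979) and Spats2l (0.974), and for Myf5 Prox1 (0.989), Actc1 (0.987), a muscle actin, and Cpq (0.986). Myod1 was followed by Gstp1 (0.987), Rtl3 (0.985) and Mymk (0.982), the myoblast fusion protein myomaker, and Myog by Pcbp4 (0.974), Ncoa1 (0.974) and Chrna1 (0.973), a subunit of the acetylcholine receptor. Myf6 had Sln (0.98), which encodes sarcolipin, Tcf21 (0.969) and Trim8 (0.961). Pax3 had Hoxb1 (0.844), Alyref2 (0.824) and Slc26a1 (0.805).

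Lists of genes around these factors, written with earlier results of these data known, show what moved beside them. Their counts were also taken without muscle repeats 1 and 2 and without tumor repeat 4, alternatives chosen after seeing the data. Of all genes tested, 13.4% were called higher and 12% lower in tumor Tom+/Pecam1- against Tom-/Pecam1- cells, 24.1% and 23% in tumor Tom+/Pecam1- against muscle Tom- cells, and 19.1% and 20.5% in muscle Tom+ against Tom- cells. The upstream factors (Six4, the Eya co-factors and other developmental transcription factors) had 6 of 11 tested genes higher and 2 lower in tumor Tom+/Pecam1- than in Tom-/Pecam1- cells (median 0.32, all genes 0.03). Tcf21, a head muscle factor, was 2.76 higher on the log2 scale (9.24 ± 0.40 in Tom+/Pecam1- and 6.48 ± 0.61 in Tom-/Pecam1- cells; adjusted p = 5.77e-06, limma) and Tbx1, which patterns the muscles of the pharyngeal arches, 1.35 higher. The 2 lower genes were Eya2 (-0.84) and Meox2 (-0.73). Msc, which also marks head muscle, did not pass (-0.23, adjusted p = 0.167). Eya2 and Msc were named here after their values were seen. Against muscle Tom- cells 6 of 11 were higher and 3 lower in tumor Tom+/Pecam1- cells. Tcf21 was 3.74 higher, Tbx1 2.93 and Meox1, a homeobox factor of the somites, 2.39, while Msc, a repressor of helix-loop-helix factors that also marks head muscle, stood at -1.66. In muscle Tom+ against Tom- cells 2 of 11 were higher, Meox2 (1.56) and Meox1 (1.17), and 5 lower, with Eya4 at -3.73 and Msc at -2.40. Without muscle repeats 1 and 2 the median of the list there was -0.45 (all genes 0.01). Against muscle Tom- cells that setting left 4 higher and 3 lower in tumor Tom+/Pecam1- cells, and without tumor repeat 4 the counts within tumors were 5 higher and 2 lower.

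E proteins are the partners of the helix-loop-helix members. Of the 3 tested, Tcf12 was higher in tumor Tom+/Pecam1- than in Tom-/Pecam1- cells (0.35, adjusted p = 0.0147) and 0 were called against muscle Tom- cells. In muscle Tom+ against Tom- cells Tcf4 (1.06) and Tcf3 (0.76) were higher. With muscle repeats 1 and 2 left out, Tcf3 no longer passed (0.85, adjusted p = 0.147), and without tumor repeat 4 neither did Tcf12 in tumors (0.33, adjusted p = 0.0637), while Tcf4 did (0.35, adjusted p = 0.0312).

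The inhibitors list holds repressors and partners that block the myogenic factors. In tumor Tom+/Pecam1- against muscle Tom- cells 9 of 14 were higher and 0 lower (median 0.82, all genes 0.01), where 24.1% of all genes were called higher and 23% lower. Bhlhe41, which represses Myod1 activity, was 3.24 higher (adjusted p = 1.43e-06), Snai1, a repressor that competes at E-boxes, 2.20, Id1, which sequesters E proteins, 1.79, and Mdfi, which holds the factors in the cytoplasm, 1.45. Tumor Tom-/Pecam1- cells showed 8 higher and 2 lower against muscle Tom- cells (23.8% and 24.9% of all genes), with Bhlhe41 at 2.30 and Snai1 at 1.41. Between tumor Tom+/Pecam1- and Tom-/Pecam1- cells 7 were higher, among them Hey1 (1.09), Mdfi (0.65) and Heyl (1.13), and 1 was lower. Hey1 and Heyl are targets of Notch signalling, but Hes1, another such target in the list, did not pass (0.31, adjusted p = 0.234). The 1 lower gene was Twist1 (-0.80), which did not pass without tumor repeat 4 (-0.49, adjusted p = 0.133). Hes1 and Twist1 were named after their values were seen. In tumor Tom+/Pecam1+ against Tom+/Pecam1- cells 0 were higher and 9 lower (21% and 23.6% of all genes). In tumor Tom+/Pecam1- against muscle Tom- cells 7 of 14 were higher and 0 lower without muscle repeats 1 and 2.

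Of 10 co-activators tested, 3 were higher and 1 lower in tumor Tom+/Pecam1- than in Tom-/Pecam1- cells, led by Tead1 (0.69), a factor that acts with Vgll proteins. Against muscle Tom- cells 2 were higher and 5 lower, with Vgll2, a cofactor of Tead proteins in muscle, at -1.94 (adjusted p = 1.63e-07) and Mef2d, a partner of the myogenic factors, at -0.61. The 2 higher, named after their values were seen, were Tead1 (0.39) and the methyltransferase gene Carm1 (0.30). There 0 were higher and 2 lower without muscle repeats 1 and 2, with Vgll2 at -2.30 (adjusted p = 2.79e-05), and without tumor repeat 4, 2 were higher and 2 lower within tumors.

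Of the 15 satellite cell genes, 9 were higher and 0 lower in Tom+/Pecam1- than in Tom-/Pecam1- cells (median 0.61, all genes 0.03). Cdh15, the adhesion molecule M-cadherin, was 1.46 higher (adjusted p = 0.000195), the receptor Fgfr4 1.43 and Megf10, a surface protein of satellite cells, 1.36. Against muscle Tom- cells the list split into 4 higher and 5 lower (median -0.03, all genes 0.01). Calcr, the calcitonin receptor of quiescent satellite cells, differed by -3.55 in tumor Tom+/Pecam1- cells (centred means -0.91 ± 0.24 in tumor and 2.64 ± 0.04 in muscle cells; adjusted p = 1.06e-11), Chrdl2, a chordin-like protein, by -3.27, Dag1, dystroglycan, by -1.55 and Cav1, caveolin, by -1.14. The 4 higher genes, named after their values were seen, were the proteoglycan Sdc3 (1.55, adjusted p = 3.63e-06) and the adhesion molecules Ncam1 (0.99), Cdh15 (0.69) and Vcam1 (0.47). Of these, only Sdc3 still passed without muscle repeats 1 and 2 (1.58, adjusted p = 0.00197). Calcr did not pass between tumor Tom+/Pecam1- and Tom-/Pecam1- cells (0.01, adjusted p = 0.966). In muscle Tom+ against Tom- cells 2 of 15 were higher and 11 lower (median -2.22). Without muscle repeats 1 and 2 the split against muscle Tom- cells was 1 higher and 4 lower, with Calcr at -3.54 (adjusted p = 4.73e-07), and 1 higher and 10 lower in muscle Tom+ against Tom- cells. Without tumor repeat 4 the split within tumors was 10 higher and 1 lower.

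Differentiation targets, the genes that Myod1 and Myog switch on, had 18 of 22 higher and 0 lower in tumor Tom+/Pecam1- than in Tom-/Pecam1- cells (median 1.28, all genes 0.03). Musk, the receptor kinase of the nerve-muscle synapse, was 1.45 higher, Klhl41, a sarcomere-associated protein, 1.57, and the receptor subunit Chrnb1 1.19. In muscle Tom+ against Tom- cells 0 were higher and 18 lower (median -1.70), with Chrna1 at -4.79 and Mymk at -4.40. Between tumor Tom+/Pecam1- and muscle Tom- cells 7 of 22 were higher and 1 lower. The embryonic myosin Myh3 was 3.74 higher (2.95 ± 0.39 in tumor and -0.79 ± 0.10 in muscle cells; adjusted p = 2.69e-08), the perinatal myosin Myh8 3.16, troponin C gene Tnnc1 3.86 and the atrial and embryonic light chain gene Myl4 1.93. The 1 lower gene was Ckm, the creatine kinase of muscle (-1.51, adjusted p = 0.031), named after its value was seen, whose SD in muscle Tom- cells was 1.93. All 10 endothelial genes were lower in these tumor cells than in muscle Tom- cells, and the part of other cells in the lists was not tested. Mymk gave -0.38 (adjusted p = 0.44). Without muscle repeats 1 and 2, 5 of 22 were higher and 1 lower in tumor Tom+/Pecam1- against muscle Tom- cells, with Myh3 at 3.73 (adjusted p = 0.000133), and 0 were higher and 12 lower in muscle Tom+ against Tom- cells. Without tumor repeat 4, 17 of 22 were higher and 0 lower within tumors. Ckm and Acta1 are also in the fibre list.

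**Figure D4:**
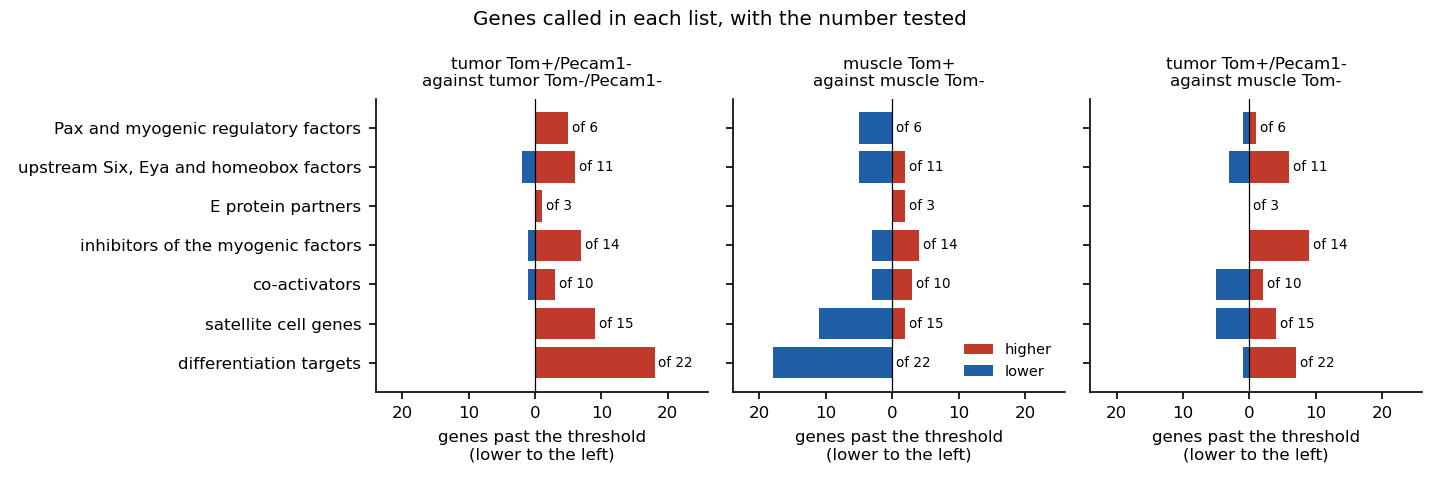
Number of genes past the threshold (horizontal axis, lower to the left and higher to the right) in each gene list (vertical axis) in 3 comparisons. The number beside a bar is how many genes of the list were tested. Differentiation targets have 18 of 22 higher in tumor Tom+/Pecam1- against tumor Tom-/Pecam1- cells, 18 of 22 lower in muscle Tom+ against Tom- cells, and 7 higher and 1 lower in tumor Tom+/Pecam1- against muscle Tom- cells.

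**Figure D5:**
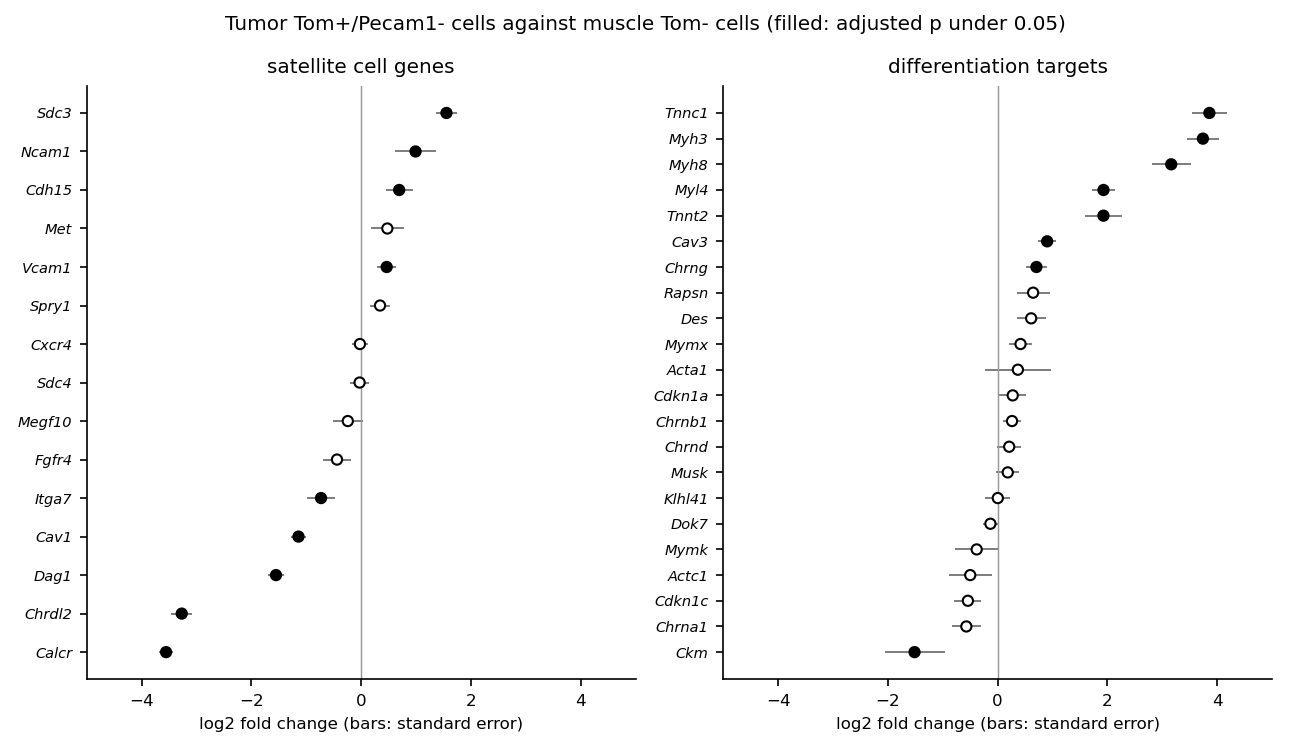
Log2 fold change on centred values (horizontal axis) of satellite cell genes (left) and differentiation targets (right) in tumor Tom+/Pecam1- minus muscle Tom- cells, sorted by value. Points are limma estimates with their standard error, filled where the adjusted p is under 0.05. Calcr and Chrdl2 are lowest among the satellite cell genes, and Tnnc1, Myh3 and Myh8 are highest among the differentiation targets.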

How the data were processed

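RNA of sorted cells was amplified to cDNA and hybridised to 18 arrays. The deposited log2 values hold 41345 probe sets, 0 missing, and were made with RMA and Partek per the submitters' processing notes. Versions and array build are not given in the sources used here. Probe sets were named by GEO's platform annotation (23521 with 1 symbol, 1814 with several and 16010 with none, the last 2 kinds left out), and the highest-mean probe set stood for a gene. A gene was tested if 3 arrays exceeded their 40th percentile. limma 3.58.1 in R 4.3.3 fitted 5 group means (13 residual and 3.8 prior degrees of freedom, two-sided). It was tested on simulated data. Exact permutation tests used scipy 1.17.1, and figures matplotlib 3.10.9. Precision is limited by the number of arrays.

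The members, lists and comparisons were chosen with earlier results of these data known. Named were the members in every comparison, the 3 genes most correlated with each (without predicted, Rik, LOC, Mir and Snor symbols), and up to 4 genes per list by smallest adjusted p. Repeat numbers pair the muscle samples (same-number deviations r = 0.271 to 0.31, others -0.195 to -0.0912). In tumors the check is void, because the means per number are equal (r = -0.717 to -0.173). Alternatives were the filter, normalization, centring, probe sets, variance model, array weights, groups fitted, replicate block and arrays left out. A listed upstream factor and its motif are not reported here.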

Additional observations from a re-analysis of the deposited data

Results flagged for a closer look

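Myog in tumor Tom+/Pecam1+ cells was flagged because its highest array, repeat 4 at 6.97 (log2), lay apart from the other 3, with a gap of 0.867 of the whole range. Pax3 in tumor Tom+/Pecam1- cells was flagged because its lowest array, repeat 4 at 4.51, lay apart, with a gap of 0.961 of the range. Of 18 sets of 4 arrays examined, 2 were flagged, and chance flags about 1 in 20. Both are repeat 4, the tumor at postnatal day 38. For each gene the 3 tumor populations have equal means for every repeat number, so its sets are not independent. In repeat 4 the Tom-/Pecam1- cells had the lowest Myog (6.84) and the highest Pax3 (5.13) of their group. The count of 2 is therefore not read against the rate of 1 in 20, and the part of age was not tested.

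The difference between marked and unmarked cells was not the same in tumor and muscle by the test of the difference itself, but the gates were unlike. Muscle Tom+ cells were not split by Pecam1, and their endothelial sum was 14.1 to 14.2, against 9.68 to 10.1 in tumor Tom+/Pecam1- cells. Tissue and gate therefore cannot be told apart here. Tom+/Pecam1- minus Tom-/Pecam1- cells in tumors, less Tom+ minus Tom- cells in muscle, gave 4.59 for Pax7, 5.28 for Myf5, 3.69 for Myod1, 5.52 for Myog and 2.04 for Myf6.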

How the results depend on the processing

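Of 916 recomputed changes of the 6 genes, 895 kept their direction and side of the threshold, 16 lost the call, 4 gained one and 1 turned. Reversed was Pax3 in tumor Tom+/Pecam1+ against muscle Tom+ cells, 0.0152 (log2) on uncentred values. Of 462 recomputed counts 441 stayed within 1.5 times. Without muscle repeats 1 and 2, with 1 array per muscle population assumed to vary like the other groups, genes called were 3629 (against 6352) in muscle, 4960 (7545) in tumor Tom+/Pecam1- against muscle Tom-, 2769 (5482) in tumor Tom+/Pecam1+ against muscle Tom+ and 3992 (6319) for the mark effect between tissues. With the replicate block, tumor Tom+/Pecam1- against Tom-/Pecam1- gave 2693 genes (against 4065), and muscle 5192. The fixed replicate block changed no call of the 6 genes (Pax7 in tumors adjusted p = 0.0102, in muscle 0.000185), and the random one ended that of Myf6 in muscle. The random block applied a correlation of -0.49 to all arrays, which the muscle pairs do not share. Uncentred, tumor Tom+/Pecam1+ against muscle Tom+ gave 8444 genes. Members called lower in tumor Tom+/Pecam1- against muscle Tom- were 1, or 0 uncentred and without muscle repeats 1 and 2, and 0 to 1 when single arrays were left out. Tumor Tom-/Pecam1- against muscle Tom- had 1 member higher uncentred. In tumor Tom+/Pecam1+ against muscle Tom+, 1 member was lower, or 0 with the 60th percentile filter, uncentred, with only the groups compared and without muscle repeats 1 and 2, and 0 to 1 when single arrays were left out, and 1 was higher uncentred. The cause of these changes was not tested. Pax3 became a call in tumor Tom+/Pecam1+ against Tom-/Pecam1- cells with quantile normalization (adjusted p = 0.0251) and without Tom-/Pecam1- repeat 2 (adjusted p = 0.0408). In the paired exact test by sign flips within a replicate block the change of Myf5 relative to Pax7 in tumors was 0.01 (exact p = 1.0), where 4 pairs cannot go below 0.125. Pax3 and Myf6 outside tumor Tom+/Pecam1- cells lie near or below the array median, where background limits what a difference shows.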
